A study of Mus musculus with 3 samples.

Results

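The nuclear receptors form a family of transcription factors, and 45 of their genes were examined for peaks of Foxc1 and Foxc2 in mouse kidney glomeruli. The 45 were taken as a fixed list of gene names, out of 21887 genes that the RefSeq annotation of GRCm38 gives as protein-coding on the assembled nuclear chromosomes. All 45 names were found there. The list was chosen with earlier results of these data known, so the shares below describe these genes and test nothing. Chromatin immunoprecipitation with sequencing (ChIP-seq) recovers DNA bound by a protein with an antibody to it, and a peak is a place where the recovered DNA piles up. The 3 libraries of the series came from glomeruli of C57BL/6 mice at 8 weeks, with no genotype or treatment named: 1 with an antibody to Foxc1 (D8A6, CST), 1 with an antibody to Foxc2 (AF6989, R&D Systems) and 1 of input DNA, which was not analysed here. Glomeruli hold podocytes, mesangial cells and endothelium together, and the material was whole glomeruli caught on beads, so a peak cannot be given to a cell type. Peaks hold no RNA level either, so neither the makeup of the tissue nor the expression of a receptor could be checked. With 1 library per antibody nothing measured the spread between animals, and intervals cover counting error only.

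Nuclear receptors bind DNA through zinc fingers, and many switch genes when a small lipid-soluble ligand such as a steroid, a retinoid, thyroid hormone or a fatty acid enters their ligand pocket. Others have no known natural ligand and are called orphans. Several act as heterodimers with a retinoid X receptor. In the kidney, the glucocorticoid receptor is the target of steroid treatment of nephrotic syndrome, and retinoic acid, vitamin D and peroxisome proliferator-activated receptors have been studied in podocytes. Foxc1 and Foxc2 are closely related forkhead factors, and forkhead proteins recognise DNA cores such as TGTTTAC.

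A gene was counted when the summit of a peak, its highest point, lay in the annotated span of the gene or within 50 kb of either end. Of the 45 receptor genes, 21 had a Foxc1 summit (46.7%, exact Clopper-Pearson 95% interval 31.7 to 62.1%), and 29.3% of all protein-coding genes had one. To allow for gene length, each receptor gene was also set beside the 200 other genes closest to it in span. Of these, 35.3% had a Foxc1 summit. A Foxc2 summit was found for 19 of the 45 (42.2%, exact interval 27.7 to 57.8%), beside 23.2% of all genes and 25.5% of the genes of like span. Both antibodies marked 14 receptor genes (31.1%, exact interval 18.2 to 46.6%), beside 12.5% of all genes and 14.9% of genes of like span. With each summit given only to its nearest gene, 8 receptor genes had both (17.8%, beside 7.33% of genes of like span), and with peaks of a minus log10 q of 5 or more 8 had both (17.8%, beside 8.74%). Nr1d1 counts among the 14 only through peaks also given to Thra. The interval of the Foxc1 share holds the 35.3% of genes of like span, and no share was tested. Foxc1 alone marked 7 members (15.6%: Rarb, Rora, Vdr, Nr2c1, Nr2f1, Nr3c2 and Esr2). Foxc2 alone marked 5 (11.1%: Ppara, Rara, Rarg, Nr4a3 and Nr5a1), and 19 had no summit (42.2%). No share of other genes was counted for these classes, so they only list the members and are not read as a trait of the family. The 21 genes shared 36 Foxc1 peaks and the 19 genes shared 30 Foxc2 peaks. Counted per gene, that came to 38 and 34 assignments, where the means of the genes of like span added up to 26.8 and 16.6.

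**Figure D1:**
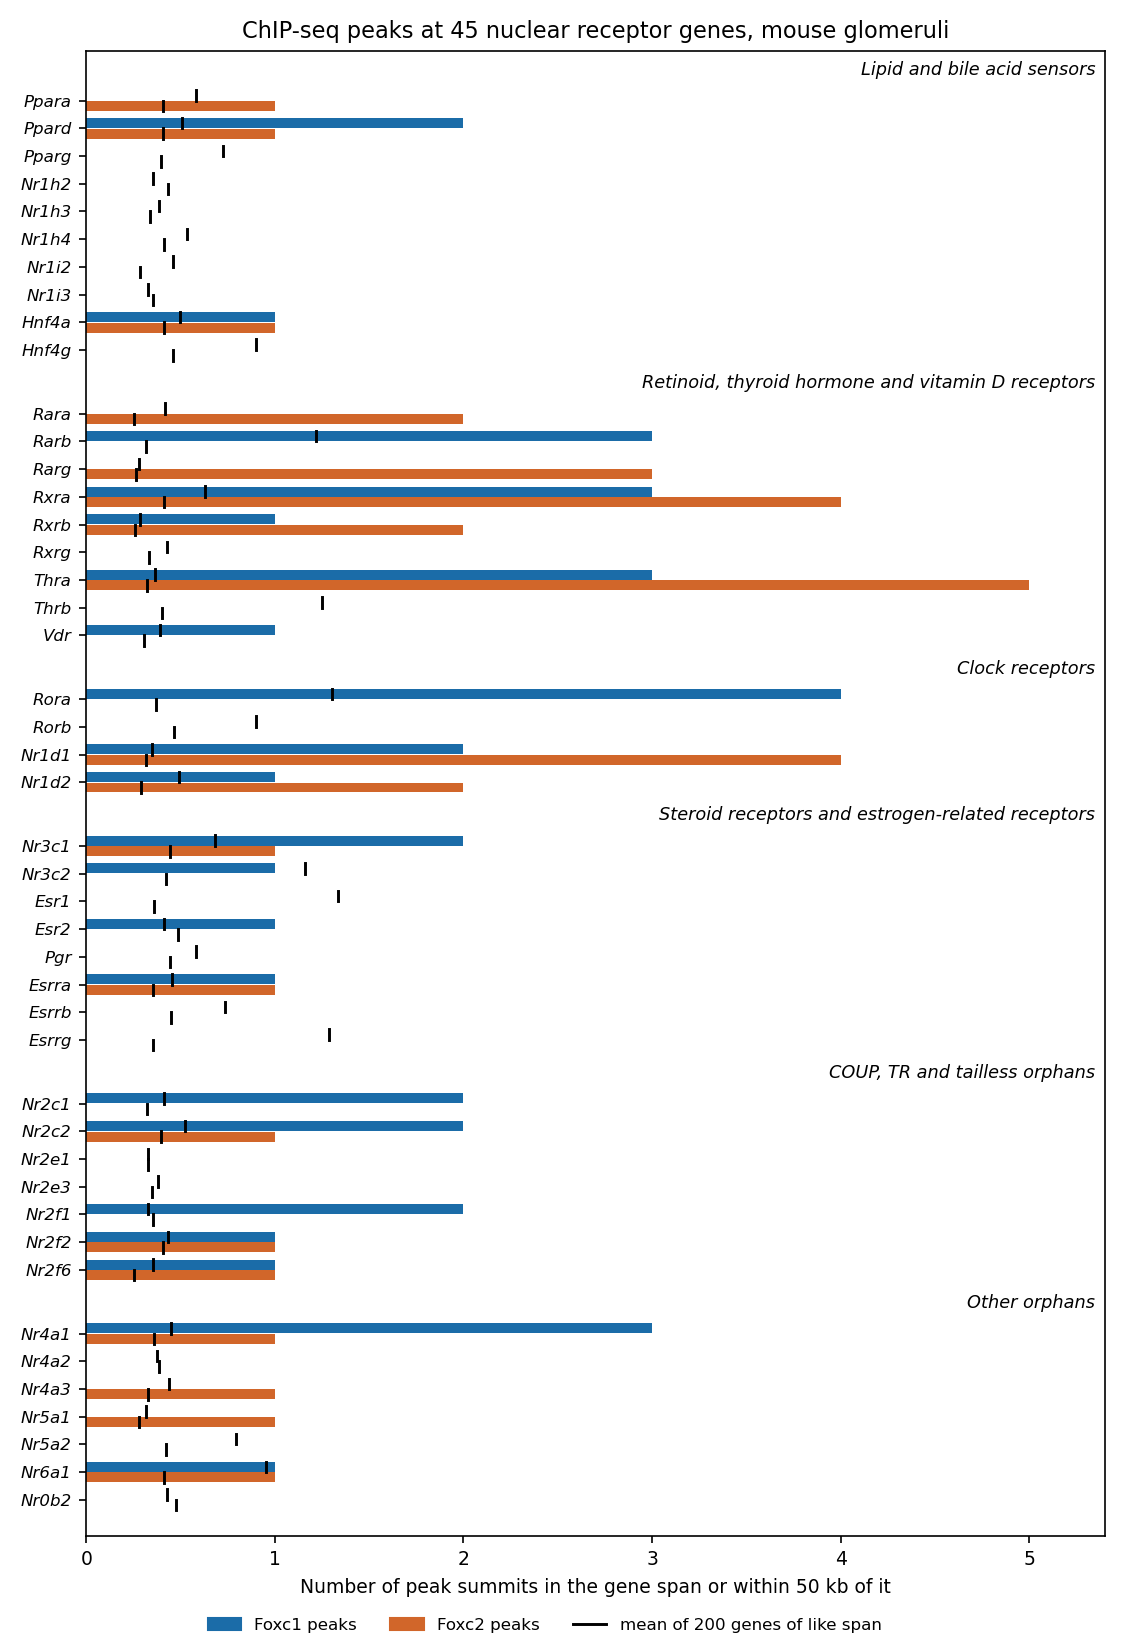
Number of peak summits (horizontal axis) in the span of each of the 45 receptor genes or within 50 kb of it, by role, with Foxc1 as blue and Foxc2 as orange bars and the mean of 200 genes of like span as a black tick. Thra carried the most peaks, 3 of Foxc1 and 5 of Foxc2, while 19 genes carried none.

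The distance limit left some genes close to either side of it. The farthest assigned Foxc1 summit lay 42.3 kb from Thra and the farthest Foxc2 summit 44.9 kb from Nr5a1. Just outside, a Foxc1 summit lay 57.2 kb from Nr2e3 and a Foxc2 summit 55.9 kb from Vdr. Among members with none, the median distance to the nearest summit was 191 kb for Foxc1 (24 genes) and 294 kb for Foxc2 (26 genes). Hnf4g was the most remote, at 1887 and 5591 kb. Not every assigned peak was closest to its receptor gene: for 26 of the 36 Foxc1 peaks and 18 of the 30 Foxc2 peaks a receptor gene was the nearest protein-coding gene, and the others lay nearer to, or inside, a neighbour.

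Among the 10 sensors of lipids, bile acids and foreign compounds, 2 were marked by Foxc1 and 3 by Foxc2, beside 35.2% and 27.1% of genes of like span. Ppard encodes a receptor for fatty acids that drives lipid oxidation. Inside it (chromosome 17, 28232754 to 28301469) lay the strongest of all 5213 Foxc1 peaks, with a fold enrichment of 50.5 over the local background of the peak caller, a width of 756 bp and a minus log10 q of 425. The summit stood 20.6 kb downstream of the listed start of the gene. A Foxc2 peak of fold 4.50, rank 819 of 2881, covered the same place, and its summit was 4 bp from that of Foxc1. A weaker Foxc1 peak inside Ppard, of fold 6.17 (28256759 to 28257134), had no Foxc2 peak over it. So the top Foxc1 site of the whole list held a Foxc2 peak above the median fold of its list, 3.97, and below its upper quartile, 4.65. Both peaks lay deep inside the gene rather than at its start.

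The other members of the PPAR subfamily looked different. Ppara, the fatty acid receptor prominent in liver, had no Foxc1 peak, the nearest being 100 kb away, and 1 Foxc2 peak of fold 3.29 whose summit was 45 bp before its listed start. Pparg, the receptor of fat cell differentiation, had no summit of either antibody, with the nearest 527 kb (Foxc1) and 439 kb (Foxc2) away. Hnf4a, an epithelial regulator of proximal tubule and liver, had a Foxc1 peak of fold 7.88 and a Foxc2 peak of fold 3.61, but both lay outside it, 22.5 and 29.6 kb from an end, and were nearest to Ttpal, a neighbour. The oxysterol receptors Nr1h2 and Nr1h3, the bile acid receptor Nr1h4, the xenobiotic receptors Nr1i2 and Nr1i3, and Hnf4g had none.

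Of the 9 receptors for retinoids, thyroid hormone and vitamin D, 5 were marked by Foxc1 and 5 by Foxc2, with 11 and 16 peaks, beside 34.2% and 23.6% of genes of like span. Rxra encodes the retinoid X receptor that partners many other members. It had 3 Foxc1 peaks, of fold 3.48, 20.9 and 4.75, and 4 Foxc2 peaks, of fold 7.38, 6.53, 5.50 and 4.13. The Foxc2 peaks of fold 7.38 and 6.53 stood at the start of the gene, with summits 828 and 221 bp before a listed start, and no Foxc1 peak was there. The remaining Foxc2 peaks lay 36.9 and 49.2 kb downstream, each over a Foxc1 peak, with summits 2 and 50 bp apart. The order of the folds was opposite at these sites: Foxc1 gave 3.48 and 20.9, and Foxc2 gave 5.50 and 4.13. Rxra thus carried peaks of Foxc2 alone at its start and of both antibodies within its body. Of its 200 genes of like span, 5% had as many Foxc1 peaks and none as many Foxc2 peaks. Its 7.38 was the highest Foxc2 fold near any receptor gene, rank 91 of 2881.

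The retinoid X receptor gene Rxrb had a Foxc1 peak of fold 3.86 with its summit 44 bp before a listed start. Its Foxc2 peaks, of fold 4.64 and 3.20, lay inside the neighbours H2-K1 and Ring1, 31.7 and 7.18 kb away. Rxrg had none, its nearest summits lying 163 kb (Foxc1) and 793 kb (Foxc2) off. Each retinoic acid receptor gene had peaks of 1 antibody alone. Among genes of like span, the absent antibody marked 29.5% for Rara and 22% for Rarg (both Foxc1) and 16% for Rarb (Foxc2). Each absence was thus also the commoner outcome among genes of like span. Rara had 2 Foxc2 peaks, of fold 3.61 and 3.95, and Rarg had 3, of fold 3.83, 4.30 and 3.33, all within the genes, and neither had a Foxc1 peak. Rarb, whose span of 651 kb is far longer, had 3 Foxc1 peaks inside it, of fold 3.85, 4.26 and 3.38, and no Foxc2 peak. None of these 8 peaks was near the top of its list, the best placed being a Foxc2 peak of Rarg at rank 1019 of 2881.

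Thra, the thyroid hormone receptor gene on chromosome 11 (98740776 to 98769006), had 3 Foxc1 peaks, of fold 6.01, 8.07 and 6.80, and 5 Foxc2 peaks, of fold 4.47, 4.17, 3.77, 4.30 and 3.95. Of its 200 genes of like span, 2% had as many Foxc1 peaks and none as many Foxc2 peaks. Only 1 peak of each antibody was inside the gene, at the same place, with folds of 8.07 and 4.17 and summits 48 bp apart. The others lay up to 42.3 kb away, and 3 Foxc2 peaks were inside the neighbours Med24 and Msl1. Thrb had no summit of either antibody over its 381 kb, with the nearest 199 kb away in both lists. Vdr, the vitamin D receptor gene, was assigned a strong Foxc1 peak of fold 17.1, rank 162 of 5213, and no Foxc2 peak within reach. That peak lay inside Hdac7, a histone deacetylase gene, 22.6 kb from Vdr.

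Of the 4 receptors of the circadian clock, 3 were marked by Foxc1 and 2 by Foxc2, beside 37.5% and 23.9% of genes of like span. Nr1d1 and Nr1d2 encode the haem-binding repressors REV-ERB alpha and beta. Nr1d2 had a Foxc1 peak of fold 9.81, rank 581 of 5213, and a Foxc2 peak of fold 3.78 over it, with summits 432 and 430 bp downstream of its start, 2 bp apart. Another Foxc2 peak, of fold 3.44, lay 31.9 kb away, nearest to Rpl15. Nr1d1 was assigned 2 Foxc1 and 4 Foxc2 peaks, all of them outside it and all of them also assigned to Thra, which overlaps Nr1d1 by 1075 bp. Its nearest summits were 15.1 kb (Foxc1) and 14.0 kb (Foxc2) away. Rora, an activator at the same response elements, had 4 Foxc1 peaks of fold 4.86, 3.33, 3.13 and 5.63 inside its 735 kb, at least 357 kb downstream of its listed start, and no Foxc2 peak. Rorb had no peak.

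Among the 8 receptors for steroids and their estrogen-related relatives, 4 were marked by Foxc1 and 2 by Foxc2, beside 43.1% and 27.1% of genes of like span, and no peak of this group was shared by the antibodies. Nr3c1 encodes the glucocorticoid receptor (chromosome 18, 39410545 to 39519421). It had 2 Foxc1 peaks inside it, of fold 4.90 (39450067 to 39450403, rank 2496) and 5.63 (39483581 to 39483889, rank 1890), the former at the median of the list, 4.90. Its single Foxc2 peak, of fold 2.36 (39489645 to 39490137), was rank 2873 of 2881, with a minus log10 q of 1.45. The Foxc2 peak of Nr3c1 is therefore among the weakest calls of the list, while its Foxc1 peaks are ordinary ones. Of genes of like span, 40.5% were marked by Foxc1 and 30.5% by Foxc2.

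Nr3c2, the mineralocorticoid receptor gene, had 1 Foxc1 peak of fold 3.80, 128 kb downstream of a listed start, and no Foxc2 peak. Esr2, the estrogen receptor beta gene, was assigned a Foxc1 peak of fold 5.85 that lay inside Syne2. Esrra, a regulator of mitochondrial genes, was assigned a Foxc1 peak of fold 7.44 inside Bad and a Foxc2 peak of fold 3.09 inside Prdx5. Esr1, Pgr, Esrrb and Esrrg had none, although Esr1 and Esrrg span 394 and 606 kb and 55 and 50.5% of genes of their span had a Foxc1 summit.

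Of the 7 COUP-TF, testicular receptor and tailless-like orphans, 5 were marked by Foxc1 and 3 by Foxc2, beside 28.6% and 24.1% of genes of like span. Nr2c1, testicular receptor 2, had a Foxc1 peak of fold 22.3 inside it, 24.0 kb downstream of its start and rank 76 of 5213, and no Foxc2 peak lay there. Another Foxc1 peak, of fold 5.54, lay inside the neighbour Fgd6. Nr2c2, its close relative, had a Foxc1 peak of fold 11.6 before the gene and another of fold 6.43 at its start, the latter overlapped by a Foxc2 peak of fold 4.64 and a width of 961 bp, with summits 330 bp apart. Nr2f2, COUP-TFII, a regulator of venous and mesenchymal identity, had a Foxc1 peak of fold 6.01 with its summit 542 bp downstream of its start. Its Foxc2 peak of fold 4.13 lay further inside, at 4.84 kb, so the antibodies marked different places in 1 short gene. Nr2f1, COUP-TFI, had Foxc1 peaks of fold 3.71 and 5.22 on either side of it, 8.10 and 6.81 kb from its ends, and no Foxc2 peak. Nr2f6 had a Foxc2 peak of fold 3.33 with its summit 325 bp before its start and a Foxc1 peak of fold 2.89 inside Babam1. Nr2e1 and Nr2e3 had none.

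Among the other 7 orphans, 2 were marked by Foxc1 and 4 by Foxc2, beside 33.8% and 26% of genes of like span. Nr4a1 is an immediate early gene induced by many stimuli. Its Foxc2 peak, of fold 5.13 and rank 503, had its summit 144 bp before a listed start, and a Foxc1 peak of fold 12.3, rank 351, had its summit 562 bp after that start. These peaks did not overlap, and 2 further Foxc1 peaks, of fold 5.22 and 3.32, lay outside the gene. The related Nr4a2 had no peak, and Nr4a3 was assigned only a Foxc2 peak of fold 4.13 inside Stx17, 38.5 kb away. Nr6a1, germ cell nuclear factor, was assigned a shared site in Olfml2a, 7.60 kb from it, with a Foxc1 fold of 3 and a Foxc2 fold of 4.50, and summits 26 bp apart. Nr5a1, the steroidogenic factor gene, was assigned a Foxc2 peak of fold 4.47 at 44.9 kb, and Nr5a2 and Nr0b2 had none.

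In strength, the highest Foxc1 receptor peak was rank 1 of its list, at Ppard, and the highest Foxc2 receptor peak was rank 91 of its list, at Rxra. The 36 Foxc1 peaks had a median fold of 5.58 (lowest 2.89, highest 50.5), beside 4.90 over the whole list, and 21 of them were above that list median. The 30 Foxc2 peaks had a median fold of 4.13 (lowest 2.36, highest 7.38), beside 3.97, and 16 were above it. The highest Foxc2 fold of the whole list was 16.0, and 1 of the 30 was among the top 100, beside 3 of the 36 for Foxc1. The top 100 is a larger part of the Foxc2 list (2881 peaks) than of the Foxc1 list (5213 peaks), so these counts are not compared between antibodies. Folds are the authors' values and were compared within a list only. Of the 36 Foxc1 peaks, 7 were overlapped by a Foxc2 peak (19.4%, exact 95% interval 8.19 to 36.0%), beside 8.20% of the whole list. Counted from the 30 Foxc2 peaks, the same 7 sites made up 23.3% (exact interval 9.93 to 42.3%), beside 14.8% of that list. The interval of each holds the share of its whole list, for Foxc1 only just (lower limit 8.19%, beside 8.20%). Both intervals rest on the same 7 sites, and neither share was tested. The 7 shared sites were those of Ppard, Thra, Nr1d2, Nr2c2, Nr6a1 and, with 2 sites, Rxra. In 6 of them the summits were at most 50 bp apart, the exception being Nr2c2, beside 186 of all 427 overlapped Foxc1 peaks (43.6%). That limit equals the widest gap among these 6, at an Rxra site, so the count is not read as a trait of receptor genes. At the shared sites the Foxc1 rank ran from 1 (Ppard) to 5124 (Nr6a1), so they were not confined to strong Foxc1 peaks.

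**Figure D2:**
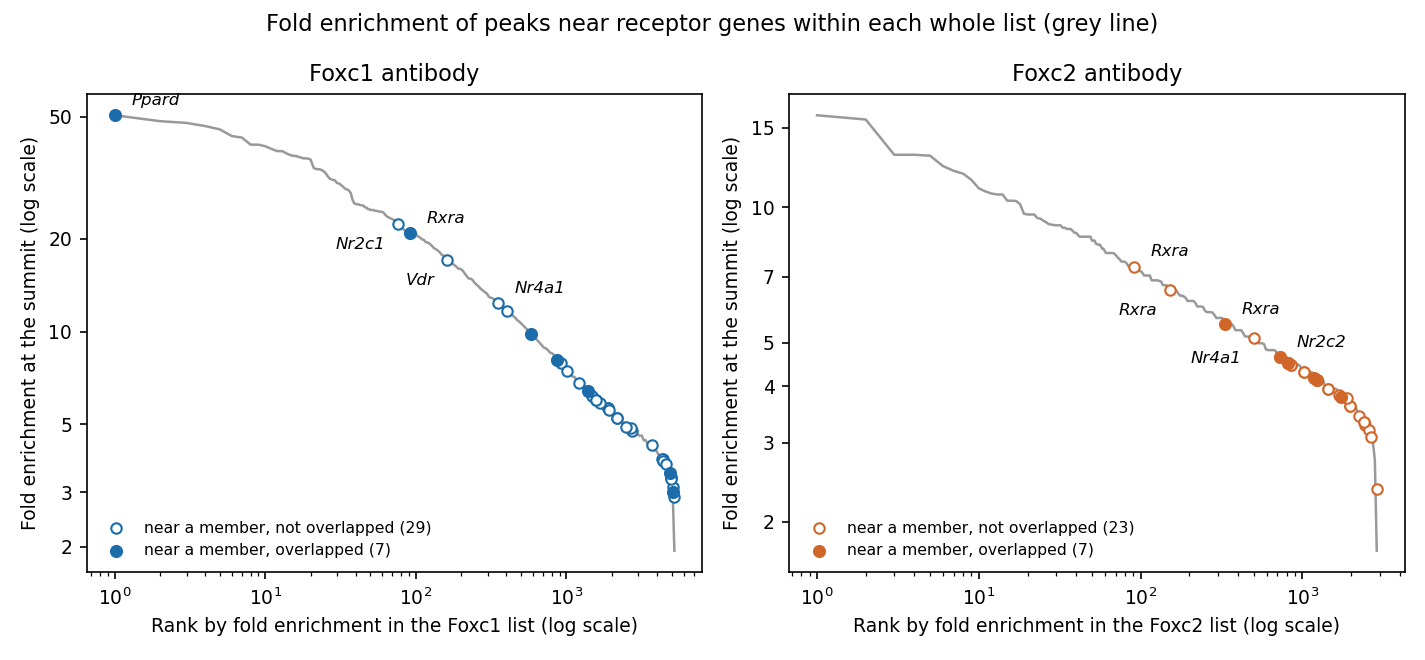
Fold enrichment at the summit (vertical, log scale) against the rank of the peak in its list (horizontal, log scale), for Foxc1 (left) and Foxc2 (right), with the whole list as a grey line and peaks near receptor genes as circles, filled where a peak of the other antibody overlaps. Ppard heads the Foxc1 list at 50.5, and the highest Foxc2 circle is Rxra at 7.38.

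Starts of transcription were listed for 41 of the 45 genes in the RefSeq promoter table of GRCm38.p6, the exceptions being Hnf4g, Thra, Nr3c1 and Nr5a1. A Foxc1 summit lay within 1 kb of a listed start in 5 of the 41 (12.2%: Rxrb, Nr1d2, Nr2c2, Nr2f2 and Nr4a1), beside 2.70% of 17492 protein-coding genes with a listed start. A Foxc2 summit did so in 7 of the 41 (17.1%: Ppara, Rarg, Rxra, Nr1d2, Nr2c2, Nr2f6 and Nr4a1), beside 8.36%. Nr1d2, Nr2c2 and Nr4a1 had both. The 1 kb window was chosen after the peaks were seen, and no interval is given for these shares. The receptor genes had more listed starts than other genes, 62 windows for 41 genes beside 21238 for 17469, and its part in these shares was not tested. The Foxc1 peaks of highest fold lay at varied distances from a start: 20.6 kb at Ppard (fold 50.5), 24.0 kb at Nr2c1 (22.3), 49.2 kb at Rxra (20.9), 76.4 kb at Vdr (17.1, inside Hdac7) and 562 bp at Nr4a1 (12.3).

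**Figure D3:**
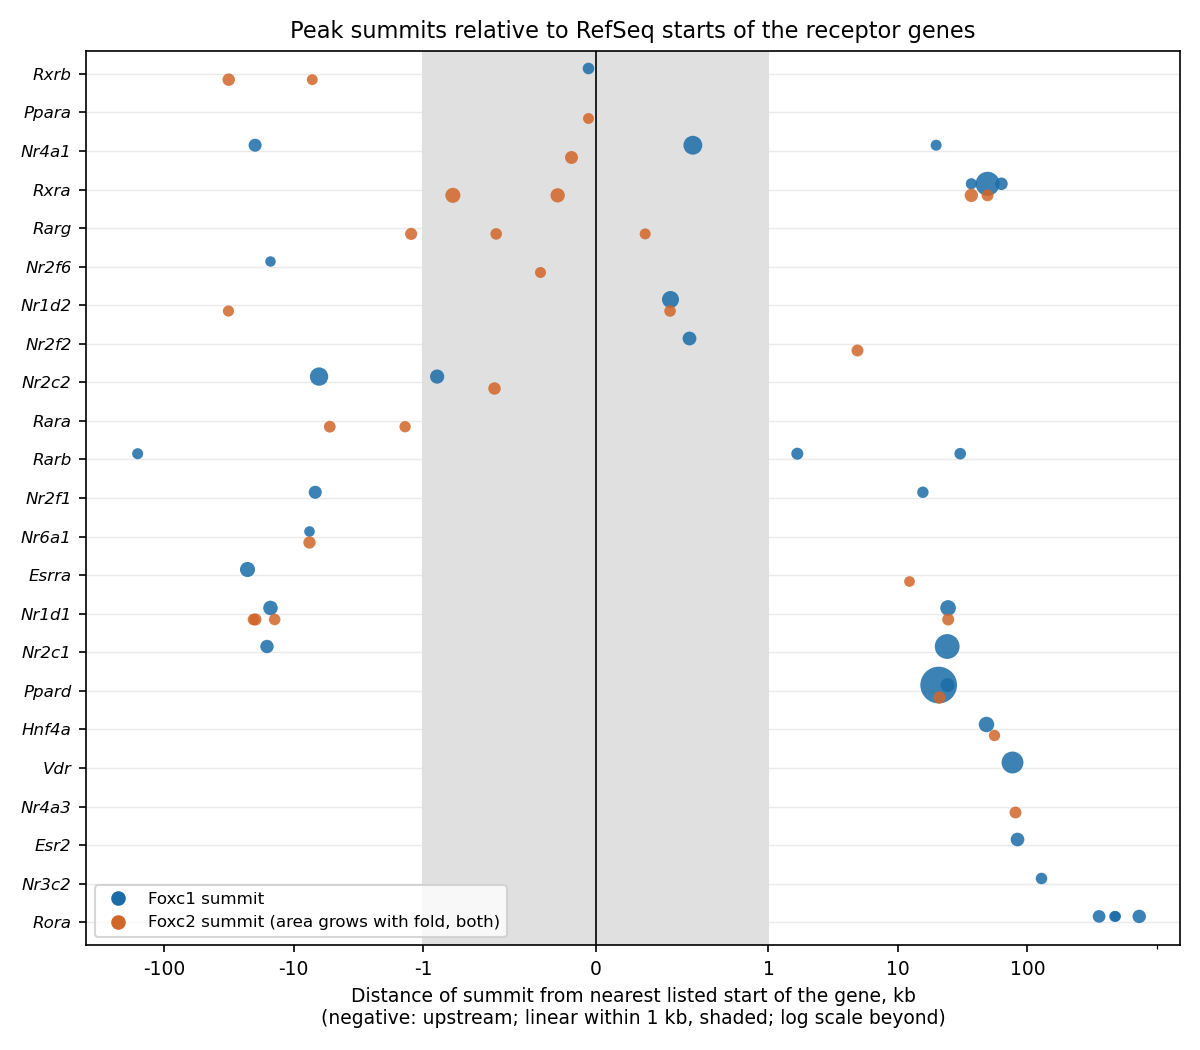
Distance in kb of each summit from the nearest listed start of its gene (horizontal, linear within 1 kb and logarithmic beyond, negative upstream), for the 23 receptor genes with both a summit and a listed start, Foxc1 in blue and Foxc2 in orange, with the area of a point growing with its fold. The shaded 1 kb around the start holds 9 Foxc2 and 5 Foxc1 points, among them Nr4a1 (12.3) and Nr1d2 (9.81) of Foxc1, and the largest Foxc1 point, Ppard at 50.5, lies 20.6 kb downstream.

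In 4 members a summit fell in the 250 bases just before a listed start, so the sequence under the peak could be read from that table. They are shown because 1 of them, under the Foxc1 peak, holds a forkhead core and the 3 under Foxc2 peaks do not. Each stretch reaches 50 bases to either side of the summit, as far as the 250 bases go, 5′ to 3′ on the plus strand, which is the strand of all 4 genes. Capitals mark the forkhead core in Rxrb and the 21 bases around the summit in the others.
Rxrb, Foxc1 peak, chr17:34032256-34032349: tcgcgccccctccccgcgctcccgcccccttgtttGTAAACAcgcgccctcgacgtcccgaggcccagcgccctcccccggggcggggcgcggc
Ppara, Foxc2 peak, chr15:85735681-85735775: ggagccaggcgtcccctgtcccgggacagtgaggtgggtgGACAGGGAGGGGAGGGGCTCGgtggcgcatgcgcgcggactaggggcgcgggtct
Nr4a1, Foxc2 peak, chr15:101266652-101266752: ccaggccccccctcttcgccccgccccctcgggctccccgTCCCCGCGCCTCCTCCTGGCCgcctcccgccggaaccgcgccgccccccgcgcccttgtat
Rxra, Foxc2 peak, chr2:27676951-27677030: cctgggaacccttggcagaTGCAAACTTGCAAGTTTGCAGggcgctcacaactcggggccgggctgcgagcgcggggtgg
The core in Rxrb, GTAAACA, is TGTTTAC read on the other strand, and its centre is 12 bases from the Foxc1 summit. Searched were TGTTTAC and TATTTAC on both strands, which differ at 1 base and so never match the same letters. Of all 21238 windows of 250 bases before listed starts of protein-coding genes, 1034 held either (4.87%). Of the 150 windows that held a Foxc1 summit, 59 did (39.3%), and of the 564 that held a Foxc2 summit, 18 did (3.19%). Taken alone, TGTTTAC was in 2.61% of all windows, 30.7% of those with a Foxc1 summit and 3.01% of those with a Foxc2 summit. For TATTTAC these shares were 2.37%, 10% and 0.177%. These motifs were chosen after the peaks were seen, and a match is a description of the letters only. Base composition also differed between these sets. The median GC content was 55.6% over all windows, 59.6% in those with a Foxc1 summit and 70.8% in those with a Foxc2 summit. Its part in the motif shares was not tested. The 4 windows shown had 82.4% (Rxrb), 76.4% (Ppara), 74.4% (Nr4a1) and 81.2% GC (Rxra). Among the 62 windows of receptor genes, 4 held a core (6.45%), in Rxrb, Nr2f1, Nr1i2 and Rorb, and only that of Rxrb held a summit. The hexamer AGGTCA, a DNA site of many but not all nuclear receptors, was in 10 of the 62 (16.1%), beside 12.8% of all windows.

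Genes that work with the receptors were counted in the same way, in lists also chosen with earlier results of these data known. Of 17 coregulators, which carry the effect of a bound receptor to chromatin, 6 were marked by Foxc1 and 8 by Foxc2 (35.3 and 47.1%, beside 40.9 and 27.5% of genes of like span). Nrip1 had 3 Foxc1 peaks and 1 Foxc2 peak, and Ncoa3, a coactivator gene, had 2 and 1, with no overlap between antibodies. Of 13 genes of retinoid transport and metabolism, 5 and 3 had a summit (38.5 and 23.1%, beside 31.4 and 27.1%). Crabp2, which carries retinoic acid to its receptors, had a Foxc1 peak of fold 22.3 overlapped by 1 of its 4 Foxc2 peaks. Dhrs3 had 1 of each, and Aldh1a2, which makes retinoic acid, had 1 Foxc1 peak of fold 4.59.

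Of 13 known target genes of the lipid sensors, 7 and 3 had a summit (53.8 and 23.1%, beside 32.8 and 26.3%). Acadl had a Foxc1 peak of fold 12.2 and 3 Foxc2 peaks, and Cd36, a fatty acid transporter, and Pdk4, a switch from glucose to fat oxidation, had 3 and 2 Foxc1 peaks and none of Foxc2. Of 12 genes of steroid handling, receptor chaperones and glucocorticoid response, 6 and 5 had a summit (50 and 41.7%, beside 32.8 and 26.2%). Sgk1, a kinase induced by corticosteroids, had 4 Foxc1 peaks up to a fold of 7.12, and Tsc22d3, a glucocorticoid-induced gene, had 3 up to 14.4, and neither had a Foxc2 peak. The chaperone gene Hsp90ab1 had 2 and 1. Of 15 circadian clock genes, 5 and 7 had a summit (33.3 and 46.7%, beside 33.6 and 25.4%). Per1 had 2 Foxc1 peaks up to a fold of 19.5 and 4 Foxc2 peaks, Tef had 5 and 1, and Per2 had 1 and 2, with 1 shared site each at Tef and Per2. Several of these genes may share a peak with a neighbour, as the receptor genes did.

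The share of receptor genes with a summit was above that of genes of like span at each of the distances tried, which are nested and so not independent, from the span alone (28.9% beside 17.6% for Foxc1, 24.4% beside 10.9% for Foxc2) to 100 kb (53.3% beside 47.7%, and 46.7% beside 35.7%). The share was also above for Foxc1 with peaks of fold 5 or more alone (35.6% beside 20.8%). Since the members were chosen with earlier results of these data known, shares above those of genes of like span are a description only. For Foxc2 the share was not above at fold 5 or more: only Rxra and Nr4a1 were left, 2 of 45 (4.44%), beside 4.72% of genes of like span. The Foxc2 count of the family thus rested on peaks of fold under 5, as are most peaks of that list, whose upper quartile of fold was 4.65.

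**Figure D4:**
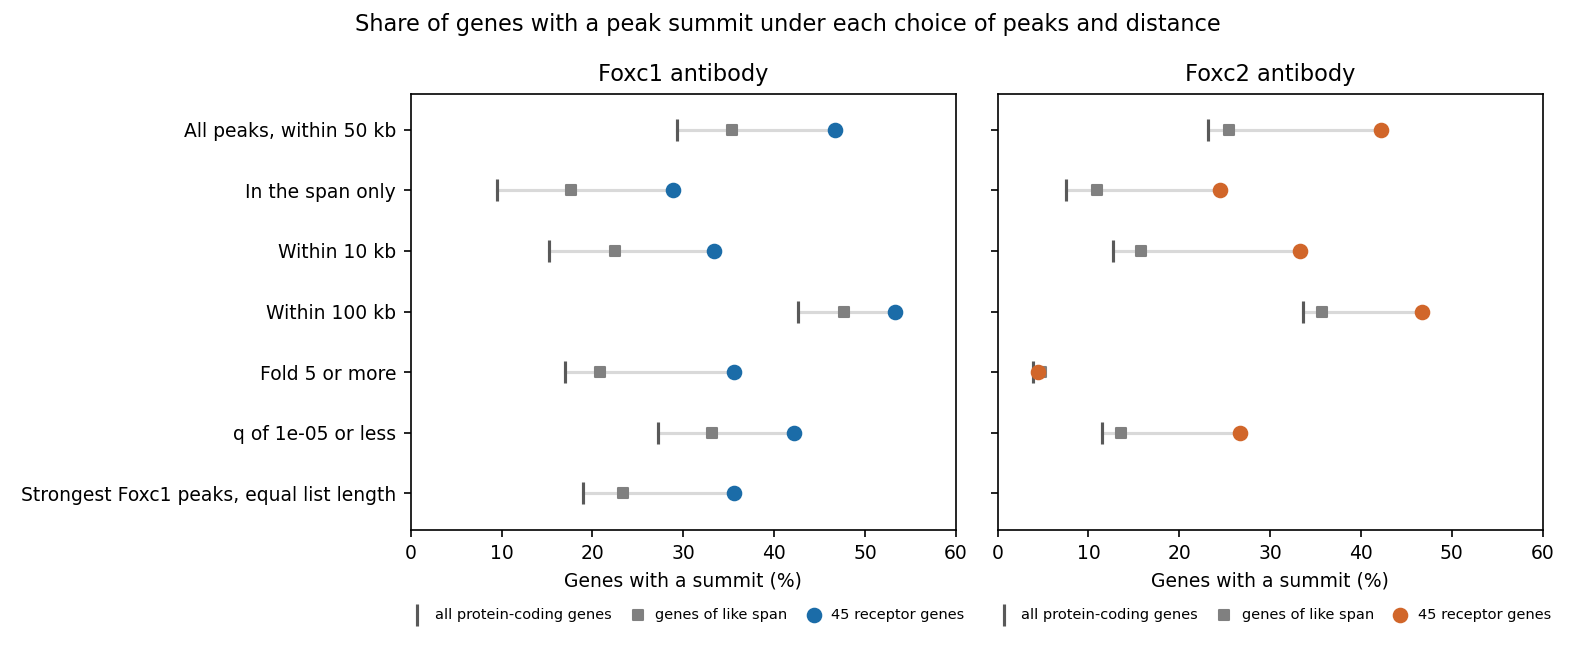
Percent of genes with a summit (horizontal) under each choice of peaks and distance (rows), for Foxc1 (left) and Foxc2 (right), in the 45 receptor genes (circles), genes of like span (squares) and all protein-coding genes (vertical ticks). The circles lie right of the squares in all rows except Foxc2 peaks of fold 5 or more, 4.44% beside 4.72%.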

How the data were processed

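The analysis used the deposited peak lists of 2 ChIP-seq libraries, 1 per antibody. Per the submitters' processing notes the tools were Bowtie2 and MACS2, with mm10 as the build. Versions, settings, control and pooling were not given in the sources used here. For each peak the authors deposited a position, a fold enrichment (a ratio against local background), minus log10 p and q (−log10 of the p-value and q-value), a score that equals 10 times the latter with decimals dropped and was not used, and a summit offset in bases. Read depth is unknown, so a shallower library may lack weaker sites. The highest q-value in either list was 0.047.

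Gene spans, starts and promoter sequence came from RefSeq tables of GRCm38.p6, the assembly of mm10. Genes were given every summit in the span or within 50 kb. Genes of like span were the 200 protein-coding genes nearest in log length to each member, members left out. Overlap was counted from 1 shared bp. Python 3.11.15, pandas 2.3.3 and scipy 1.17.1 were used, and assignment and overlap were tested on simulated data. No test compared groups, since each antibody had 1 library. Every member with a summit was named, with Ppard and Nr3c1 always, and at most 3 genes per related list by number of peaks, then fold, of which 1 is not reported here. Members and lists were chosen with earlier results of these data known, and the motif search, the 1 kb window at starts and the classes in the closing section after seeing the peaks.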

Additional observations from a re-analysis of the deposited data

How the results depend on the processing

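Of 56 values recomputed under alternatives, 40 stayed within 1.5 times the reported count (or, for shares of genes of like span, within their interval). With summits in the span only, 13 members had Foxc1, 11 had Foxc2 and 8 had both, on 21 Foxc1 and 16 Foxc2 peaks. With peaks of fold 5 or more, 2 members had Foxc2 and 2 had both, on 21 Foxc1 and 4 Foxc2 peaks. With a minus log10 q of 5 or more, 12 members had Foxc2 and 8 had both, on 16 Foxc2 peaks. With each summit given only to the nearest gene, 12 members had Foxc2 and 8 had both, on 18 Foxc2 peaks. Counting ends of any gene, 14 Foxc2 peaks lay within 1 kb of an end, where 7 lay within 1 kb of an end of the receptor gene itself. The share of the whole Foxc2 list near an end was not counted, so these counts are no trait of the receptor peaks. These alternatives use fewer peaks, a shorter reach, another rule of assignment or more ends. Leaving out peaks counted for both Thra and Nr1d1, an alternative chosen after seeing the data, gave 20 and 18 members. Depth and animal spread could not be assessed, as each antibody had 1 library and the lists hold no read counts.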

Other observations

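The 6 longest receptor genes, of 300 kb or more (Rarb, Thrb, Rora, Nr3c2, Esr1 and Esrrg, a class made after their values were seen), had 8 Foxc1 peaks, all in Rarb, Rora and Nr3c2, and no Foxc2 peak. The means of genes of like span added up to 7.56 Foxc1 and 2.23 Foxc2 peaks for these 6. The 39 shorter genes had 30 Foxc1 and 34 Foxc2 assignments, where those means added up to 19.2 and 14.4.

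Receptor genes of the thyroid hormone, REV-ERB and retinoic acid subfamilies stand near each other in 2 places. Thra, Nr1d1 and Rara lie within 234 kb of chromosome 11 and were assigned 3 Foxc1 and 7 Foxc2 peaks. At least 1 peak of each antibody lay outside that stretch, within 50 kb of Thra. Rarb, Thrb and Nr1d2 are spread over 1808 kb of chromosome 14 and were assigned 4 Foxc1 and 2 Foxc2 peaks. Of the latter, 1 lay outside the stretch, 31.9 kb from Nr1d2. No count of other genes was set beside these. Nr5a1 and Nr6a1 are 8.83 kb apart on chromosome 2, and the shared site near Nr6a1 lay beyond the reach of Nr5a1.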
